A study of Mus musculus with 4 samples.

Results

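The 10 genes described here encode receptors and junction proteins of blood vessels: the VEGF receptors Kdr, Flt1 and Flt4, the Tie receptors Tek and Tie1 with their ligand Angpt2, the endothelial junction proteins Pecam1, Cdh5 and Cldn5, and the mural cell receptor Pdgfrb. They were taken as a named set, with every non-control probe whose gene name in the array files is one of these symbols. That rule found 16 probes on 43 spots per array, out of 41174 probes for 28104 named genes. RNA levels had been measured in fetal brain of C57BL/6J mice on Agilent arrays read in 2 colours. The first treated pool came from fetuses whose dams had no food overnight up to lights-off on gestation day 17 (food deprivation, FD). The second came from fetuses whose dams received 50% of the controls' chow from gestation day 10 to 17 (food restriction, FR), with caesarean section on day 18. The day of section is named for FR and is implicit for FD. Control dams ate ad libitum. RNA of 5 fetuses was pooled per group, and each treated pool was hybridised against control RNA on 2 arrays that differed in which pool carried which dye. All 4 arrays lay on 1 slide. Whether FD and FR were set against one control pool is not stated, nor is the number of litters behind a pool.

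VEGF ligands act on Kdr, the main signalling receptor of endothelial cells for growth and sprouting, while Flt1 binds the same ligand tightly and is known to limit its supply, and Flt4 serves the lymphatic ligands and sprouting vessels. Tek is the angiopoietin receptor that keeps vessels quiet, Angpt2 can act against that signal, and Tie1 is an orphan partner of Tek. Pecam1, Cdh5 (VE-cadherin) and Cldn5 (the tight junction claudin of the blood-brain barrier) hold endothelial cells together, and Pdgfrb is the receptor through which endothelial cells recruit pericytes. In late gestation the brain is still being invaded by vessels from its surface.

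Probes of 3 genes are shown because their readings decide how the values can be read: Kdr has a bright and a dim probe, and the probe pairs of Flt1 and of Cdh5 gave different ratios for the same gene. Each probe has 60 bases, and the first 30 are printed 5′ to 3′ with G and C in capitals. The array files place the probes on build mm9 and do not say whether a probe lies in an exon or an untranslated region.
Kdr probe 1, chr5:76329309-76329368, minus strand: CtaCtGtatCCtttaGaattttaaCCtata
Kdr probe 2, chr5:76357639-76357698, minus strand: GtaCaataaCatGCaaaGGtatatCaaaGG
Flt1 probe 1, chr5:148373791-148373850, minus strand: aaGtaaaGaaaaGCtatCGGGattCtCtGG
Flt1 probe 2, chr5:148373864-148373923, minus strand: CCtGtattattCCGattttaataatCtaat
Cdh5 probe 1, chr8:106667499-106667558, plus strand: tCCGtCaaCttCaGGaaaatGGCttGtCGa
Cdh5 probe 2, chr8:106668159-106668218, plus strand: aCttattataaGaCtCtaGttCtCaCaGaC
The Kdr probes lie 28270 bases apart, and probe 2 was designed on a cDNA clone and not on the reference transcript. Both Flt1 probes sit on the same transcript with 13 bases between them, and hold 24 and 16 G or C bases of their 60. The Cdh5 probes sit 600 bases apart on one transcript, with 27 and 21 G or C bases.

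A probe counted as measured when both pools were well above background on both arrays of a comparison, and a gene was read by its brightest such probe. Ratios are log2(treated/control), turned so that a positive value means more RNA in the treated pool. A channel level is a log2 intensity after normalisation, and levels are compared only within a probe. The spread between the exchanged arrays is technical, with 1 pool per condition, so no difference between diets could be tested. Instead a gene passed at 1.5-fold or more in one direction on both arrays. Between 71.4% and 85.3% of spots per channel were well above background. The 7 neuron markers measured on all arrays stood at mean levels of 11.1 to 11.2 in all 4 pools. In FD the 9 measured neuron markers had a median ratio of -0.12, or 0.01 with median centring. Of these, 5 were below 0 on both arrays beside 23.3% of all genes, and 1 was above 0 beside 25.5%. In FR the median was 0.00. All 25 endothelial markers other than the 10 genes were measured in FD and 22 of 25 in FR. Markers of tissue outside the brain were uneven: skeletal muscle markers averaged 9.10 in the control of FD against 7.71 in the FD pool itself, and 8 of 12 measured passed as lower in FD. The FR pool and its control stood at 8.00 and 7.98. Fat markers averaged 8.38 in the control of FD against 7.48 to 7.56 in the other pools, with 3 of 8 passing as lower in FD. Neutrophil markers averaged 7.66 in FR against 7.12 to 7.19 elsewhere, with 1 of 4, S100a9, passing as higher in FR at 0.84 and 1.26. Of the fat markers Cidea passed as lower in FR, at -0.67 and -0.69, and of 9 fibroblast and meninges markers Col1a1 passed as lower in FD, at -0.90 and -0.75.

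None of the 10 genes passed in FD, where 0.0891% of 17950 genes were called higher and 0.128% lower. None passed in FR either, where 0.582% of 18547 genes were called higher and 0.431% lower. The largest difference was that of Kdr, which was 1.18-fold lower in the FD pool and 1.12-fold lower in the FR pool. The 8 genes measured in FD had mean log2 ratios from -0.24 to 0.04, with a median of -0.05 beside 0.00 over all genes. The 9 measured in FR ran from -0.16 to 0.15, with a median of -0.01 beside 0.01 over all genes. In bulk RNA, fewer vessel cells and less RNA per vessel cell cannot be told apart.

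**Figure D1:**
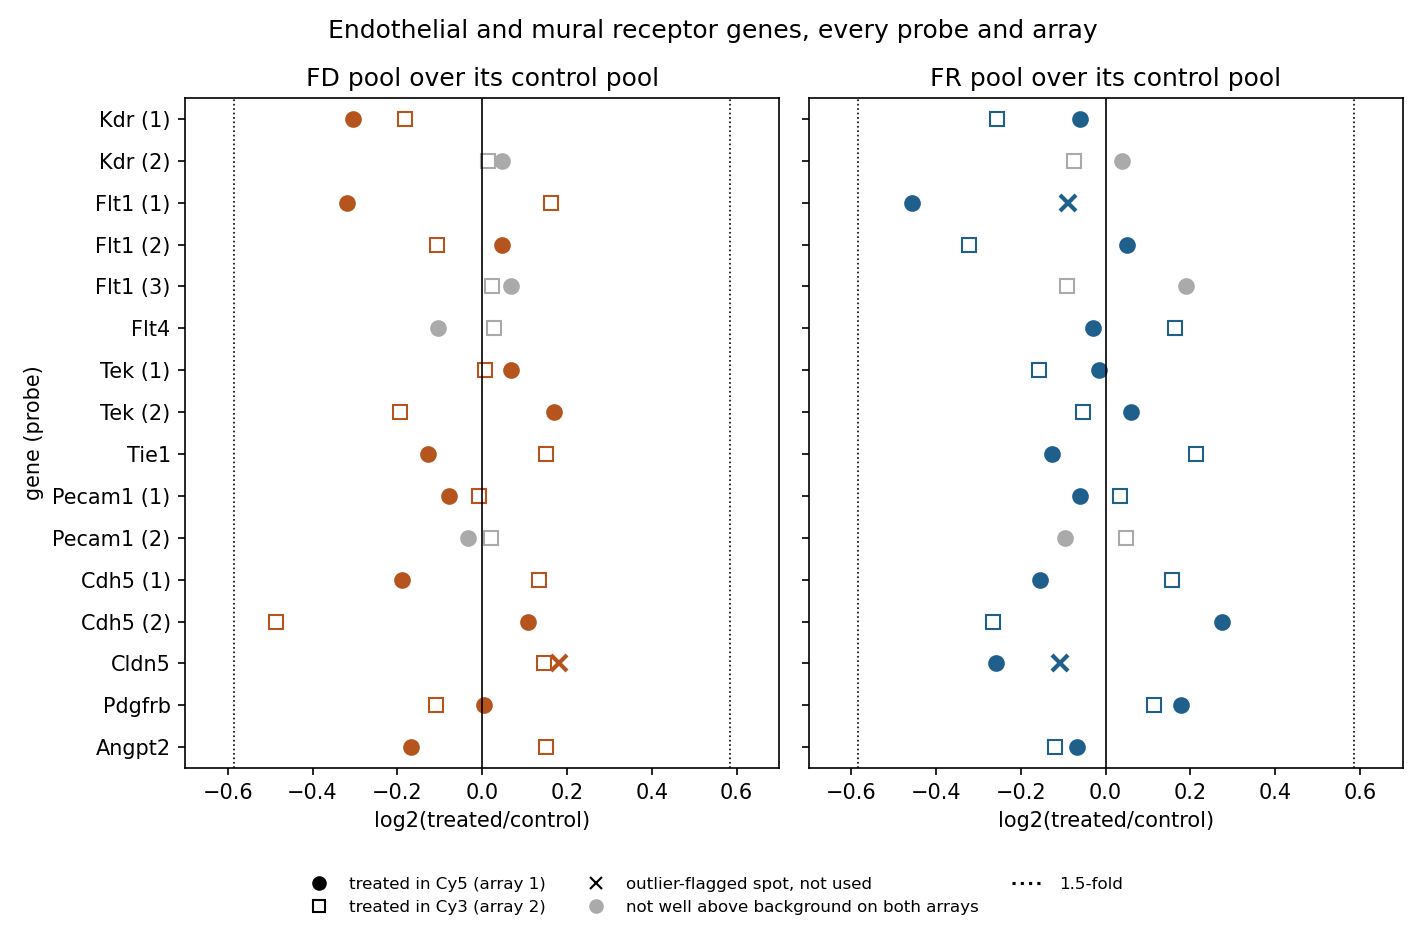
Log2(treated/control) of all 16 probes in FD (left) and FR (right), 1 point per array, filled where the treated pool was in Cy5 and open where it was in Cy3; crosses are spots left out for an outlier flag, grey points are probes not well above background on both arrays, and dotted lines mark 1.5-fold. No point reaches a dotted line, and the pair of Kdr probe 1 lies left of 0 in both panels.

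Kdr was read by its bright probe 1, printed as 10 spots on each array. Its level was 10.08 and 10.16 in the FD pool on arrays 1 and 2, against 10.38 and 10.34 in the control. In the FR pool the level was 10.12 on both arrays, against 10.18 and 10.37 in the control. The log2 ratios were -0.30 and -0.18 in FD and -0.06 and -0.26 in FR, below 0 on all 4 arrays. With each array centred on its median in place of the intensity-dependent loess fit, the same ratios became 0.42 and -0.77 in FD and 0.67 and -1.13 in FR, so the sign on single arrays then followed the dye. In the mean of both arrays that dye term cancels only as far as it is equal on both. Kdr stayed below 0 in that mean under all 8 alternatives, from -0.25 to -0.17 in FD and from -0.23 to -0.10 in FR. The -0.17 in FD was the value with median centring. These were not 8 separate checks. In FD the scanner's ratio and the authors' table both gave -0.25, and dropping the dim-probe filter or averaging over probes left it at -0.24.

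The spots of Kdr probe 1 were alike within arrays. In FD all 6 used spots of array 1 lay below 0 (SD 0.0955), and all 8 of array 2 did (SD 0.116). In FR 6 of 10 spots of array 1 lay below 0 (SD 0.127), and 7 of 7 of array 2 did (SD 0.143). Another 9 of the 40 spots had been left out for outlier flags, and with them 36 of 40 lay below 0. The mean ratio of -0.24 in FD compares with a technical SD of 0.127, estimated over all genes from the difference between the exchanged arrays. That SD includes the part that turns with the dyes, which cancels in the mean, so it is not the error of the mean alone. Of all genes, 3.70% were as low as Kdr in FD, and 15.1% were as low as its -0.16 in FR, so in FD Kdr lay among the lowest genes and in FR it did not stand out. The uneven muscle and fat markers of the control of FD move with the FD value, and their part in it was not tested. In FR the muscle markers were level, and the neutrophil markers were higher in the treated pool; their part was not tested either. Neural progenitor markers, which are not vessel genes, had a median of -0.23 in FD, close to Kdr in size, over 5 of 8 measured. Under the alternatives that median ran from -0.24 to -0.09. In FD 4 of 5 were below 0 on both arrays, beside 23.3% of all genes. In FR the median was -0.08, with 1 of 6 below 0 on both, beside 27.4% of all genes. Kdr probe 2 stayed near 5.9 in every channel and was not well above background on any array.

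Flt1 was measured by probes 1 and 2, which lie side by side and did not give the same ratios. Probe 1 read -0.32 and 0.16 in FD, and -0.46 on array 1 of FR. Its spot on array 2 of FR carried an outlier flag and was left out, and it would have read -0.09. Probe 2 read 0.05 and -0.11 in FD, and 0.05 and -0.32 in FR. Where probe 1 was below 0 with the treated pool in Cy5, probe 2 was just above 0 on the same array. The mean of both arrays was -0.08 in FD by probe 1 and -0.14 in FR by probe 2. Probe 3, in another part of the gene, was dim. In FR the Flt1 mean was -0.27 with the flagged spot kept, which makes probe 1 the brightest measured one, and 0.01 with normexp fitted on all spots.

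Flt4, the receptor of lymphatic endothelium, was close to the detection limit. Its channel levels lay between 6.10 and 6.31 on all arrays, and in FD it was not measured, because the treated channel of array 2 was not well above background. In FR it read -0.03 and 0.16, with a mean of 0.07. Its sign in FR held in 5 of 8 alternatives, and the scanner's own ratio gave -0.08.

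Among the Tie system genes, Tek was near 0 throughout. Probe 1 of Tek read 0.07 and 0.01 in FD, and -0.02 and -0.16 in FR. Its level was 7.76 and 7.70 in the FD pool and 7.64 and 7.56 in the FR pool, with controls from 7.65 to 7.72. The mean level was 7.73 in FD and 7.69 in its control, and 7.60 in FR and 7.68 in its control. Probe 2 of Tek read 0.17 and -0.19 in FD, and 0.06 and -0.05 in FR. Tek thus kept one sign on both arrays by one of its probes.

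Tie1 changed sign with the dyes in both comparisons. It read -0.13 and 0.15 in FD, and -0.13 and 0.21 in FR, with means of 0.01 and 0.04. In every pool the Cy3 reading was the higher one.

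Angpt2, the ligand that is high where vessels remodel, read -0.17 and 0.15 in FD and cancelled to a mean of -0.01. In FR it read -0.07 and -0.12, a mean of -0.09 that stayed below 0 in all 8 alternatives. Its level was 8.86 and 8.79 in the FR pool against 8.93 and 8.91 in the control. Of all genes in FR, 24.1% were as low.

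The junction genes were likewise close to even. Pecam1, the adhesion molecule used to stain vessels, was printed as 10 spots per array and was dim, with levels from 6.64 to 6.80. It read -0.08 and -0.01 in FD, and -0.06 and 0.03 in FR. Of its 40 spots, 24 lay below 0, and the SD over the spots of an array was 0.0586 to 0.104. The other Pecam1 probe was not well above background.

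Cdh5 was measured by both probes, which took opposite sides of 0 on every array. Probe 2, the brighter, read 0.11 and -0.49 in FD, and 0.27 and -0.27 in FR. Probe 1 read -0.19 and 0.14 in FD, and -0.15 and 0.16 in FR. Probe 2 was high in Cy5 and probe 1 was high in Cy3, whichever pool carried the dye. The means of probe 2 were -0.19 in FD and 0.00 in FR, and the single array of -0.49 was the widest reading of any measured probe of the 10 genes.

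Cldn5 had no complete pair of arrays in either comparison. Its level was 12.3 to 12.6 where it could be used. The spots on array 1 of FD and array 2 of FR carried outlier flags. The usable spots read 0.14 on array 2 of FD and -0.26 on array 1 of FR. With the flagged spots kept, FD read 0.18 and 0.14, and FR read -0.26 and -0.11. The readings in FD then lay above 0 on both arrays and those in FR below 0, on 1 spot each, and this way of counting was chosen after the values were seen.

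Pdgfrb, the only mural cell receptor of the set, was highest in the FR pool. Its level was 10.54 and 10.63 there, against 10.37 and 10.52 in the control of FR, 10.37 and 10.27 in FD and 10.36 and 10.37 in the control of FD. The lower FR reading, 10.54, was close to the higher reading of its control, 10.52. The log2 ratios were 0.18 and 0.11 in FR, a mean of 0.15 or 1.11-fold, and 0.00 and -0.11 in FD. In FR 82.8% of all genes had a lower or equal mean, so many genes were further out. With normexp fitted on all spots the second array of FR read -0.02, and the mean kept its sign in all 8 alternatives.

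**Figure D2:**
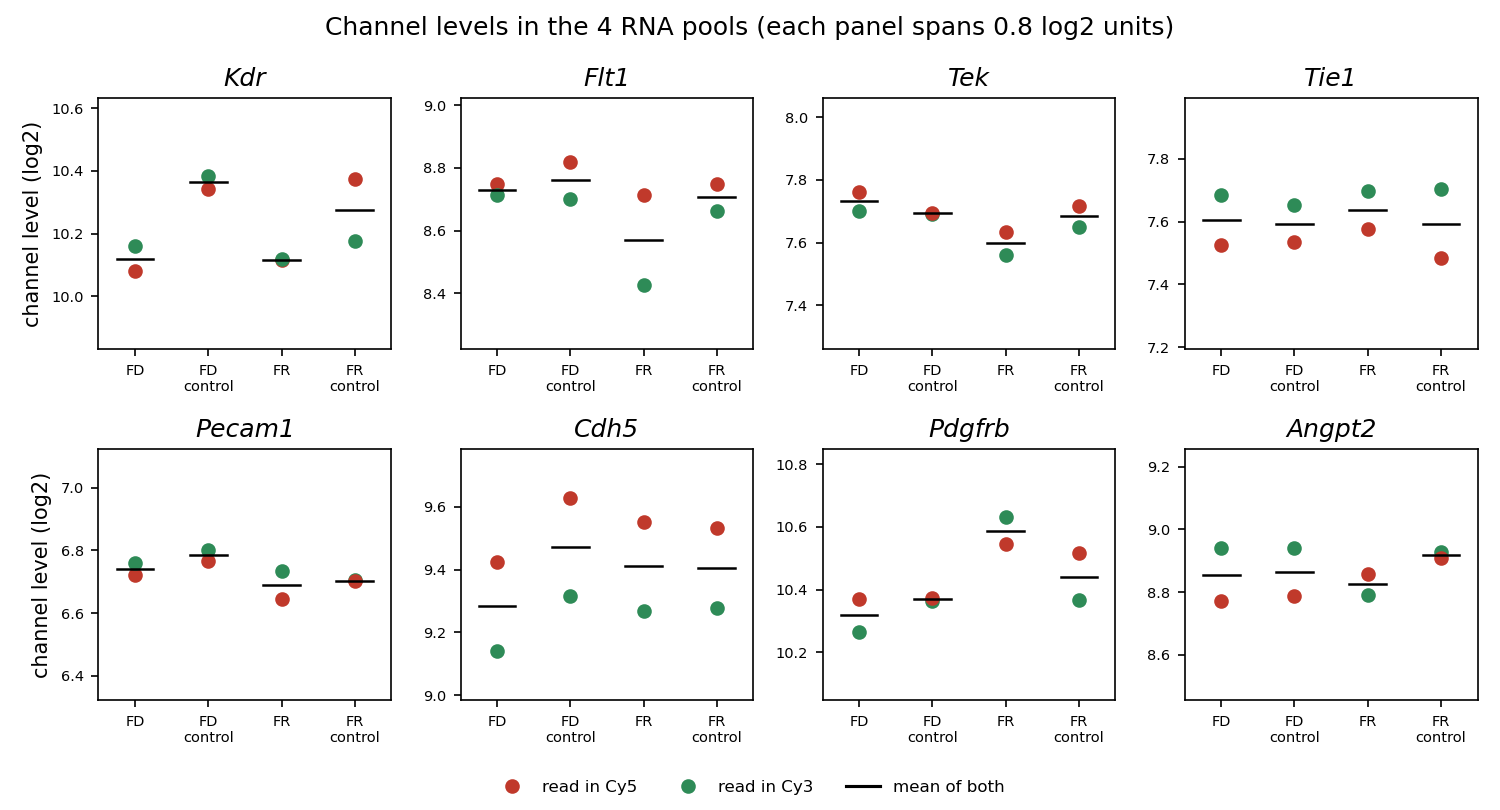
Channel levels (log2 intensity after normalisation) in the FD pool, its control, the FR pool and its control for the 8 genes measured on all 4 arrays, each by 1 probe (Flt1 by probe 2), with the Cy5 reading in red, the Cy3 reading in green and a bar at their mean. Kdr is lower in both treated pools than in both controls, Pdgfrb is highest in FR, and for Tie1 and Cdh5 the colours separate more than the pools do.

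Read as a set against all genes, the measured genes did not lean one way by signs shared on both arrays. By mean ratio in FD, Kdr, Flt1, Pecam1, Cdh5, Pdgfrb and Angpt2 lay below 0, and Tek and Tie1 above. With median centring Flt1, Pdgfrb and Angpt2 turned above 0. In FD, 1 of the 8 measured genes (Tek) was above 0 on both arrays, beside 25.5% of all genes, and 2 (Kdr and Pecam1) were below 0 on both, beside 23.3%. The other 5 changed sign with the dyes, as 51.2% of all genes did. In FR, 1 of 9 (Pdgfrb) was above 0 on both arrays, beside 28.3% of all genes, and 3 (Kdr, Tek and Angpt2) were below 0 on both, beside 27.4%. The remaining 5 changed sign, as 44.3% of all genes did. These shares lie close to those of all genes, with so few genes to count. The 5th and 95th percentiles of all genes were -0.21 and 0.21 in FD and -0.32 and 0.32 in FR, and Kdr in FD was the one gene of the set outside them.

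The mean level over the 8 genes measured on all arrays was 8.67 in FD, 8.74 in its control, 8.68 in FR and 8.72 in its control. The control of FD, which carried the muscle markers, was the highest of the 4 by a small margin. For Kdr alone the controls of FD and FR averaged 10.36 and 10.28, both above the 10.12 of either treated pool.

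FD and FR were also set against each other by subtracting the ratios of arrays with equal dye orientation. None of the 8 genes differed by 1.5-fold on both array pairs, beside 0.0717% of 16747 genes higher and 0.269% lower in FD. The differences ran from -0.20 for Pdgfrb to 0.12 for Tek, with a median of -0.03 beside 0.00 over all genes. Tek was higher in FD in both pairs of arrays, by 0.08 and 0.16, beside 31.2% of all genes. Tie1, Pecam1, Cdh5 and Pdgfrb were lower in FD in both pairs, beside 30.1%. For Pdgfrb these differences were -0.17 and -0.22, and for Cdh5 they were -0.17 and -0.22 as well. For Kdr they were -0.24 and 0.07, so the lower value in FD was seen with one orientation only. Each gene was read here by its brightest probe, and the other measured probes of Cdh5 and Tek did not repeat these differences. Probe 1 of Cdh5 read -0.19 and 0.14 in FD, close to its -0.15 and 0.16 in FR. Probe 2 of Tek read 0.17 and -0.19 in FD beside 0.06 and -0.05 in FR, higher in FD with one orientation only.

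The part of a ratio that turns with the dyes was taken as the difference between arrays 1 and 2 divided by 2. It is positive where Cy5 reads high. Over 23384 probes measured on all arrays it had an SD of 0.120 in FD and 0.127 in FR. Probe 2 of Cdh5 stood at 0.30 and 0.27, and its probe 1 at -0.16 in both. Tie1 stood at -0.14 in FD and -0.17 in FR, and Flt1 probe 2 at 0.08 and 0.19. For each of these probes the dye part was larger in size than the mean ratio, in FD and in FR alike. For Kdr the dye part was -0.06 in FD and 0.10 in FR, smaller than its mean ratio of -0.24 and -0.16.

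**Figure D3:**
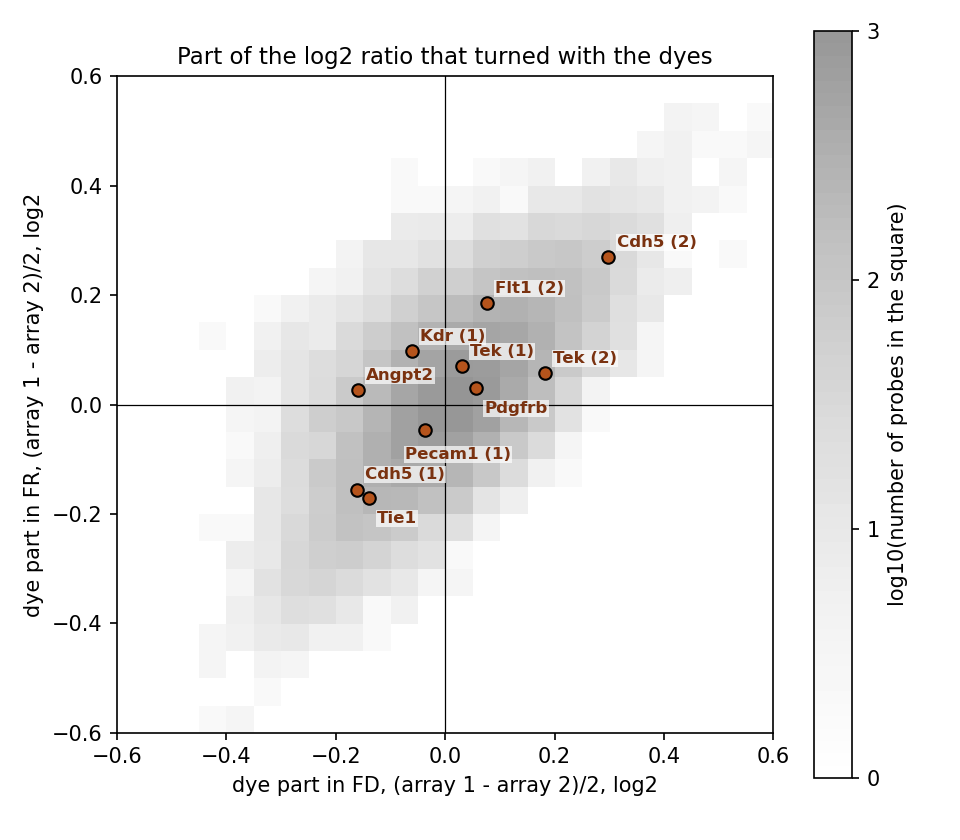
The dye part of the log2 ratio in FD (horizontal) and in FR (vertical) for the 10 probes of the set measured on all 4 arrays (orange) over squares shaded by the number of all probes (log10), with a few probes beyond the axes not drawn. Cdh5 probe 2 lies at the upper right with 0.30 and 0.27, Tie1 and Cdh5 probe 1 lie at the lower left, and Kdr lies near the centre.

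The ligands and co-receptors of the same pathways gave 0 passing genes in either comparison, over 7 VEGF genes measured in FD and 5 in FR, and 8 Tie and PDGF partners in each. Vegfa, the main ligand of Kdr and Flt1, was near even by its brightest probe, at 0.11 and -0.12 in FD and -0.04 and -0.05 in FR. Its 4 probes did not give one value in FR: one of the dimmer ones read -0.49 and -0.31, and the others had means from -0.10 to -0.04. Vegfc, a ligand of Flt4, read 0.37 and 0.10 in FD, and 0.24 and -0.24 in FR. The co-receptor Nrp1 read 0.04 and -0.20 in FR by its brightest probe, but 0.23 and 0.34, and 0.52 and 0.24, by its 2 other probes. Pdgfb, the endothelial ligand of Pdgfrb, read -0.16 and -0.26 in FR by its brightest probe and -0.15 and 0.17 by its other probe. Angpt1, the activating ligand of Tek, had means of -0.01 in FD and -0.02 in FR.

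Among the wider vessel lists, 1 gene passed in FD and 0 in FR. That gene was Tfrc, the transferrin receptor of brain endothelium and of red cell precursors, which rose 1.57-fold in FD with ratios of 0.64 and 0.66. In FR Tfrc read 0.45 and 0.41. The 5 measured red cell markers, Tfrc among them, had a median of -0.15 in FD, with Slc4a1, the red cell anion exchanger, at -0.42 and -0.41, and 6 had a median of 0.25 in FR. The other endothelial markers had a median of -0.01 in FD, which turned to 0.02 with median centring, with 6 of 25 above 0 and 6 below 0 on both arrays. Those lowest in FD were Mmrn2 at -0.38 and -0.34, Cd34 at -0.31 and -0.21, and Ushbp1 at -0.18 and -0.23. In FR the median was -0.10, with 11 of 22 below 0 on both arrays beside 27.4% of all genes, and 5 above 0 beside 28.3%. Those lowest in FR were Ushbp1 at -0.41, Icam2, an endothelial adhesion molecule, at -0.34, and Eng, the endothelial TGF-beta co-receptor, at -0.32. The highest in both comparisons was Vwf, at 0.17 in FD and 0.29 in FR, read by a different probe in each. Mural cell markers other than Pdgfrb had a median of -0.10 in FR, with 9 of 14 below 0 on both arrays beside 27.4% of all genes, and 3 above 0 beside 28.3%. Those below included Rgs5, a pericyte marker, at -0.23 and Tbx18 at -0.33, while Notch3 stood at 0.30. Pdgfrb was thus higher in FR while the median of its fellow markers was lower, and no gene among these markers passed.

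Blood-brain barrier genes had medians of 0.06 in FD and 0.10 in FR, with 9 of 21 above 0 on both arrays in FR beside 28.3% of all genes, and 3 below 0 beside 27.4%. They included Reck at 0.43 and Slc7a5, the large neutral amino acid transporter, at 0.40. Genes of the vessel basement membrane and its proteases had a median of -0.08 in FD, which became -0.0091 with median centring. There 7 of 16 were below 0 on both arrays beside 23.3% of all genes, and 1 was above 0 beside 25.5%. In FR the median was 0.04, which became -0.02 with median centring. Mmp9, a matrix protease that neutrophils also carry, read -0.40 and -0.52 in FD, and -0.43 and -0.44 in FR. Hypoxia targets, genes switched on at low oxygen, had medians of 0.02 in FD and 0.04 in FR, the latter below 0 in 3 of 8 alternatives. On the single arrays of FR the medians were -0.02 and -0.06. There 7 of 17 genes were below 0 on both arrays beside 27.4% of all genes, and 3 were above 0 beside 28.3%. In FD 5 of 18 were above 0 on both arrays beside 25.5% of all genes, and 3 were below 0 beside 23.3%. The lowest were P4ha1, a collagen hydroxylase, at -0.34 in FD and -0.55 in FR, and Pdk1, a brake on pyruvate oxidation, at -0.25 and -0.52. The highest in FD was Adm, with ratios of 0.50 and 0.07. The part of the uneven muscle, fat and neutrophil markers in these list values was not tested.

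**Figure D4:**
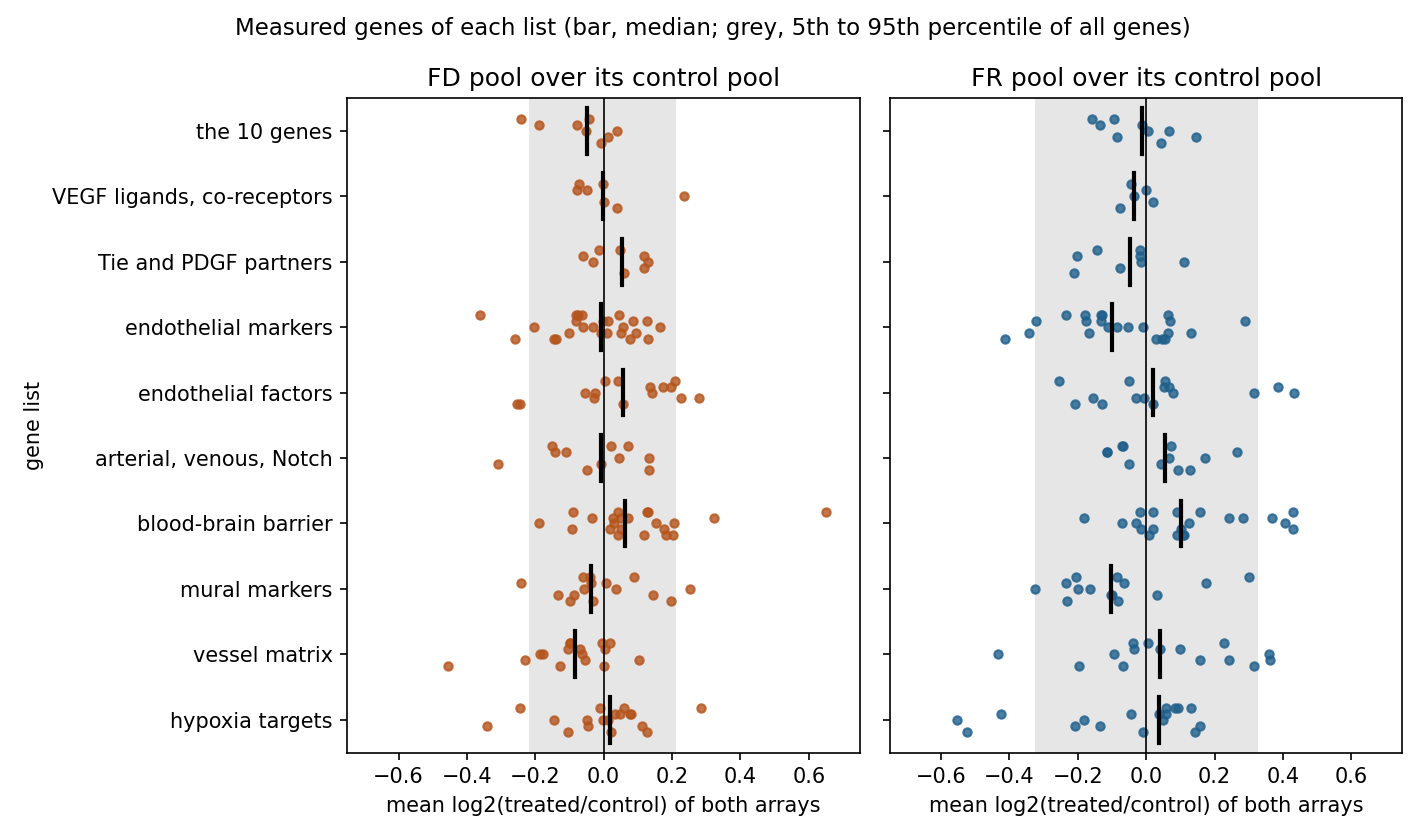
Mean log2(treated/control) of both arrays for the measured genes of each list, in FD (left) and FR (right), with a bar at the list's median and a grey band from the 5th to the 95th percentile of all genes. Of the 10 genes, the 8 measured in FD lie within -0.24 to 0.04 and the 9 measured in FR within -0.16 to 0.15. The one point that passed the 1.5-fold rule is Tfrc, at 0.65 in the blood-brain barrier list of FD.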

How the data were processed

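Total RNA pools of fetal mouse brain were read on 4 arrays of 2 colours with Agilent Feature Extraction 9.5.3.1, per the submitters' processing notes. The deposited scanner files hold the mean spot intensity and the median local background intensity per channel, uncorrected, per the file headers. The deposited log10 ratio (red to green) had been background-subtracted and dye-normalised by the scanner software, and the files carry flags of 0 or 1 per spot, per the file headers. The authors' value table has no stated unit; on bright spots it equals the deposited scanner ratio as log2 of treated over control.

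Background was corrected by normexp (offset 50), and log ratios were normalised by loess, in limma 3.58.1 under R 4.3.3. Spots whose local background exceeded 2 times the array median were left out first (3, 0, 0 and 44 of 43379 spots), as array 2 of FR has a bright patch. Outlier-flagged spots, 1682 to 3607 per array, were left out of the ratios. Channel levels followed loess and Aquantile, and a probe was measured where more than 0.5 of its unflagged spots were well above background. The pipeline was tested on simulated data. Of 41174 probes, 26906 were named by accession, 5078 by symbol and 817 by an older symbol in a mouse RefSeq table (GRCm38.p6, names only), 16 by the set's symbols, and 8357 kept the file's name.

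With 1 pool per condition there is no test and no p-value, and the number of arrays limits the precision. The technical SD came from the differences between the exchanged arrays, so it includes the dye part, which cancels in their mean. The named genes were all 10 members with every probe, and of each other list up to 3 genes with the largest mean ratio per comparison and any that passed; marker lists are given mostly by counts, with a few of their named genes. Genes of the ligand lists, and those whose probes disagree, were also named after their values were seen. Members and lists were chosen with earlier results of these data known. Alternatives were normexp on all spots, no background subtraction, median centring, the scanner's ratio, the authors' table, no filter on dim probes, the mean over probes, a 1.25-fold rule, each array left out and, chosen after seeing the data, outlier-flagged spots kept. They are not independent: on bright spots the authors' table equals the scanner's ratio. The mean over probes leaves a gene with 1 measured probe unchanged.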

Additional observations from a re-analysis of the deposited data

Results flagged for a closer look

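Tek, Hspg2 and Notch1 were among the genes with both FD arrays on one side of 0 and both FR arrays on the other. Adgrl4, Ocln, Hey2 and Fn1 of the vessel lists and P4ha2 of the hypoxia list had this pattern too. The share of all genes with it was not counted. Each was read by its brightest probe measured on all 4 arrays. For Tek the mean of FD minus FR was 0.12. For Hspg2, the basement membrane proteoglycan perlecan, it was -0.59, from ratios of -0.29 and -0.17 in FD and 0.51 and 0.20 in FR. For Notch1, a receptor in artery specification that neural progenitors also carry, it was -0.41, from -0.27 and -0.01 in FD and 0.39 and 0.14 in FR. Among marker genes of other cell types the same held for Myl1 (-2.94), Ucp1 (-1.59), Col1a1 (-1.33), Car3 (-1.11), Lpl (0.34) and C1qc (0.25). It also held for Cd68, Plin1 and Aldh1a2. Some of these signs rest on values near 0, as for Myl1 at 0.01 and 0.02 in FR. None of these differences was tested, since each condition is 1 pool, and Tek, Hspg2 and Notch1 did not reach 1.5-fold on both pairs of arrays. Probe 2 of Tek, also measured on all 4 arrays, lacked the pattern. It read 0.17 and -0.19 in FD, and 0.06 and -0.05 in FR. Without background subtraction probe 1 of Tek read 0.07 and -0.02 in FD and lost the pattern too.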

How the results depend on the processing

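No paired analysis was possible because the arrays of a comparison share their RNA pools. No member passed under any alternative, the looser size rule and single arrays included. Of 250 member values under the alternatives, 221 moved by under 1 technical SD and 29 by more. As the technical SD includes the dye part, this is a wide measure. Members above 0 on both arrays of FD numbered 1, but 0 without background subtraction, with median centring or with the mean over probes, and 2 with outlier-flagged spots kept. Those below 0 in FD numbered 2, but 0 with median centring and 1 with the scanner's ratio or the authors' table. In FR, members above 0 numbered 1, but 0 with normexp on all spots or median centring and 2 without background subtraction. Those below 0 in FR numbered 3, but 0 with median centring and 5 with flagged spots kept. The FD median of -0.05 became 0.014 with median centring, and 0.00054 and -0.10 on single arrays. The FR median of -0.01 became -0.052 with median centring, -0.077 with the scanner's ratio or the authors' table, and -0.12 and -0.030 on single arrays. The median of FD minus FR, -0.03, became 0.020 with median centring, and 0.017 and -0.060 on single arrays. For FD minus FR, members above 0 numbered 1, but 2 without background subtraction, with the scanner's ratio or the authors' table, and 3 with flagged spots kept; those below 0 numbered 4, but 1 with median centring. All genes passing numbered 39 in FD (16 higher, 23 lower), 21 with median centring (2 and 19), 141 with the scanner's ratio (74 and 67) and 234 under the looser size rule. In FR they numbered 188 (108 and 80), 13 with normexp on all spots (9 and 4), 37 with median centring (31 and 6), 604 with the scanner's ratio and 1016 under the looser size rule. For FD minus FR they numbered 57 (12 and 45), 28 with normexp on all spots (2 and 26), 66 with median centring (31 and 35), 259 with the scanner's ratio (135 and 124) and 479 under the looser size rule. On single arrays they numbered 93 to 180 in FD, 479 to 552 in FR and 128 to 187 for their difference. The setting of normexp on all spots, which keeps the spots of the bright patch, moved member ratios on array 2 of FR. There Tie1 went from 0.21 to 0.01 and Tek probe 1 from -0.16 to -0.01. Member ratios on the other arrays hardly changed, so this setting reflects that array alone. Signal over background limits Flt4 and Pecam1, and 1 spot per array limits the genes other than Kdr and Pecam1.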
